A study of Mus musculus with 4 samples.

Results

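The genes of the urea cycle and of amino acid catabolism were examined in mouse liver as a set of 46 enzymes. They were chosen by name from textbook pathways, with earlier results of these data known, and found in the transcript tables by their Entrez numbers. All 46 were listed, out of 17543 genes, and all 46 passed the filter on low counts. RNA sequencing had been done on 4 livers of C57BL/6 mice. Of these, 2 came from mice with the Ezh2 K307R point mutation on both copies of the gene, Ezh2(K307R/K307R), and 2 from wild-type (WT) mice. Ezh2 is the catalytic subunit of the Polycomb repressive complex PRC2, a histone methyltransferase, and the comparison asks which liver transcripts differ between the genotypes. No age, sex, feeding state or hour of collection is labelled. Whether replicate livers are from different animals is not labelled either, and the p-values then measure only the spread between these samples, which may be technical.

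Hepatocytes are the main site in the body where the carbon skeletons of amino acids are broken down and where the ammonia released in doing so is made into urea. Transaminases and glutamate dehydrogenase gather the nitrogen, the urea cycle disposes of it, and a separate short pathway degrades each amino acid or amino acid group. Urea cycle enzymes are concentrated in hepatocytes around the portal vein, and many of the genes are known to respond to glucagon, glucocorticoids and dietary protein.

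The deposited expected counts, the estimated reads per transcript, summed to 18602928 and 18749610 in the K307R livers and to 19289715 and 20044832 in the WT livers. Levels are given as CPM, the reads scaled to a common TMM library size, and the error of a mean is the SD of its 2 livers. Ezh2 itself had 3.45 and 2.56 CPM in the K307R livers, against 3.36 and 3.93 CPM in the WT livers (edgeR adjusted p = 0.736), and its level does not check a point mutation. Sex-chromosome transcripts went with genotype. Xist was at 327 and 573 CPM in the K307R livers and at 0.347 and 0.284 CPM in the WT livers, while the Y-linked Ddx3y, Eif2s3y, Uty and Kdm5d had 0 reads in both K307R livers and between 10.6 and 67.6 CPM in the WT livers. Genotype and sex-chromosome pattern therefore cannot be told apart in any result below. High Xist without Y-linked reads is the pattern of female tissue, and the reverse that of male tissue, although no sex is labelled. The clock genes differed as well, with Arntl at 12.3 and 23.7 CPM in the K307R livers against 1.10 and 1.18 CPM in the WT livers, and Per2 at 14.3 and 8.80 CPM against 45.0 and 45.5 CPM. Of 14 clock genes tested, 5 were higher and 8 lower in the K307R livers without overlap, against 25.2% and 23.4% of all genes. The clock gene pattern therefore cannot be told apart from genotype in these livers either, and its part in the results was not tested.

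The 46 enzymes are abundant liver transcripts. Together they held 3.41% and 3.13% of the reads of the K307R livers and 2.67% and 2.96% of those of the WT livers. By FPKM, which divides by transcript length and so allows genes to be set side by side, 37 of the 46 lay in the top 10% of the tested genes. The highest mean FPKM over the 4 livers were those of Ass1 (2371), Bhmt (1391), Hpd (1256), Gnmt (1234) and Tat (994), and the lowest were those of Sdsl (6.10) and Mccc1 (15.3). The fewest reads behind any member in a liver were 98, for Sdsl. Between the K307R livers the members differed by a median of 1.20-fold, and between the WT livers by 1.12-fold. In 36 of the 46 the level was higher in K307R replicate 1 than in K307R replicate 2, and in 30 it was higher in WT replicate 1 than in WT replicate 2.

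**Figure D1:**
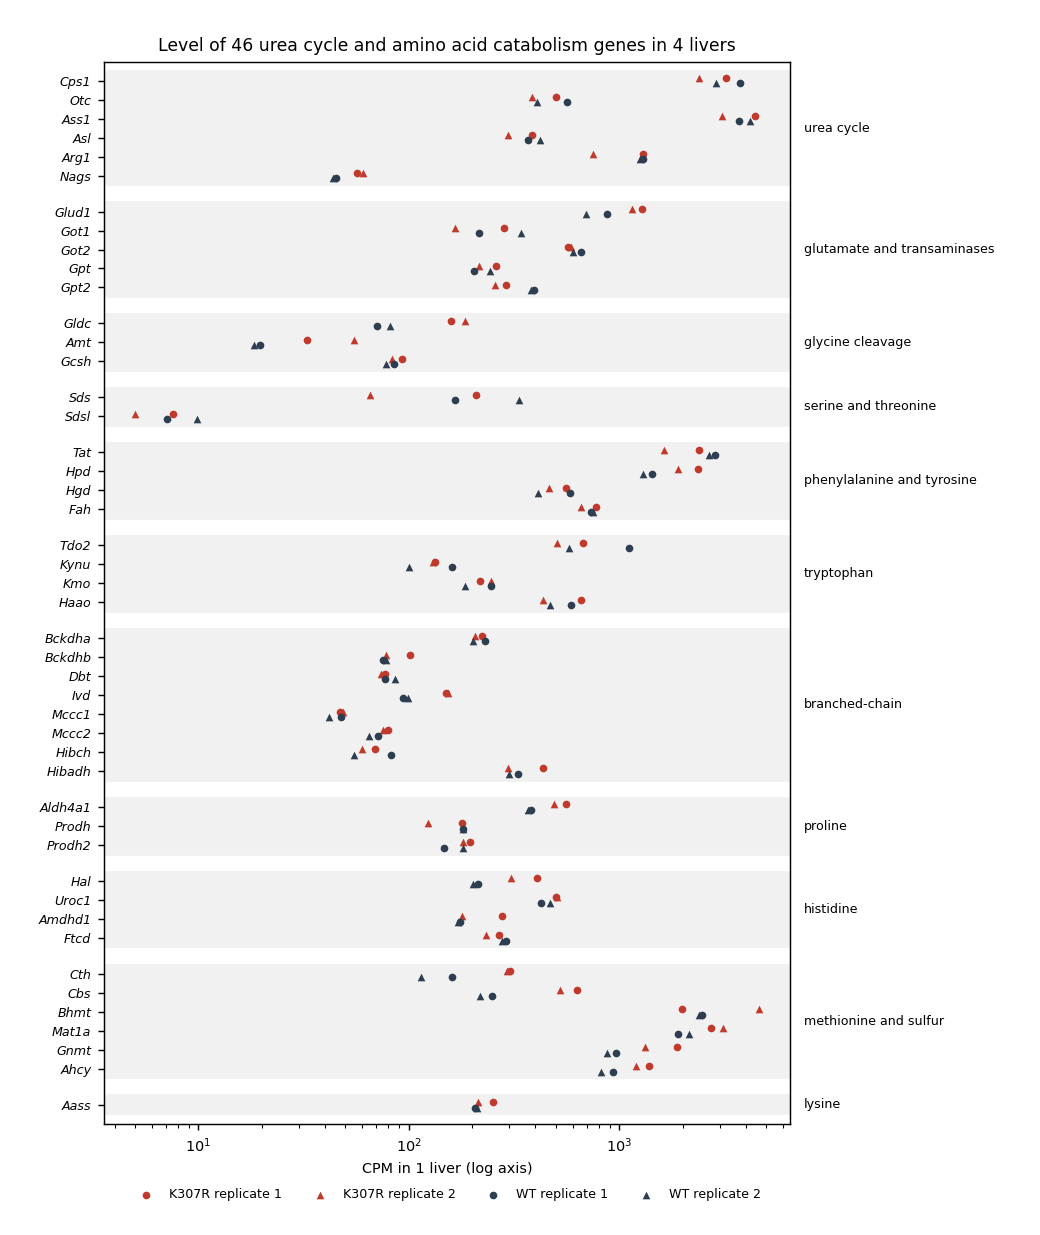
CPM (log axis) of each of the 46 genes in each liver, grouped by pathway, with K307R livers in red drawn above WT livers in dark blue, circles for replicate 1 and triangles for replicate 2. The genotypes separate for Cbs, Cth, Gldc and Amt, and the points are mixed for most urea cycle genes.

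Across the set, 2 genes rose in the K307R livers and 0 fell by edgeR's quasi-likelihood test at an adjusted p under 0.05. These were Gldc, of glycine cleavage, and Cbs, of transsulfuration. They are 4.35% of the 46, against 2.86% of all 12837 genes tested (1.39% higher and 1.47% lower), a share near the background. At an unadjusted p under 0.05, 9 members were higher and 0 lower, 19.6% of the set against 16.8% of all genes (8.50% higher and 8.31% lower). A positive log2 fold change was seen in 28 members (60.9%), against 51.1% of all genes. DESeq2 called 6 of the 46 members higher (Amt, Cbs, Cth, Gldc, Gnmt and Hal) and 0 lower. That fit called 738 of 13755 genes, 368 higher and 370 lower, a smaller share than among the members. The median log2 fold change of the 46 was 0.10, against 0.01 over all genes tested. In 19 members (41.3%) both K307R livers lay above both WT livers, and in 6 (13.0%) below, against 25.2% and 23.4% of all genes. For 25 members (54.3%) the 95% interval of the difference stayed within 2-fold in either direction, against 57.0% of all genes.

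Neither call was kept whichever liver was left out. Cbs had an adjusted p of 0.0958 without K307R replicate 1 and 0.0536 without K307R replicate 2, and Gldc had 0.0779 without K307R replicate 2 and 0.0524 without WT replicate 1. By limma on log2(FPKM + 1) and log2(FPKM + 0.1), Gldc had adjusted p of 0.0566 and 0.0568 and was not called. Without K307R replicate 2, 0 members were called.

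**Figure D2:**
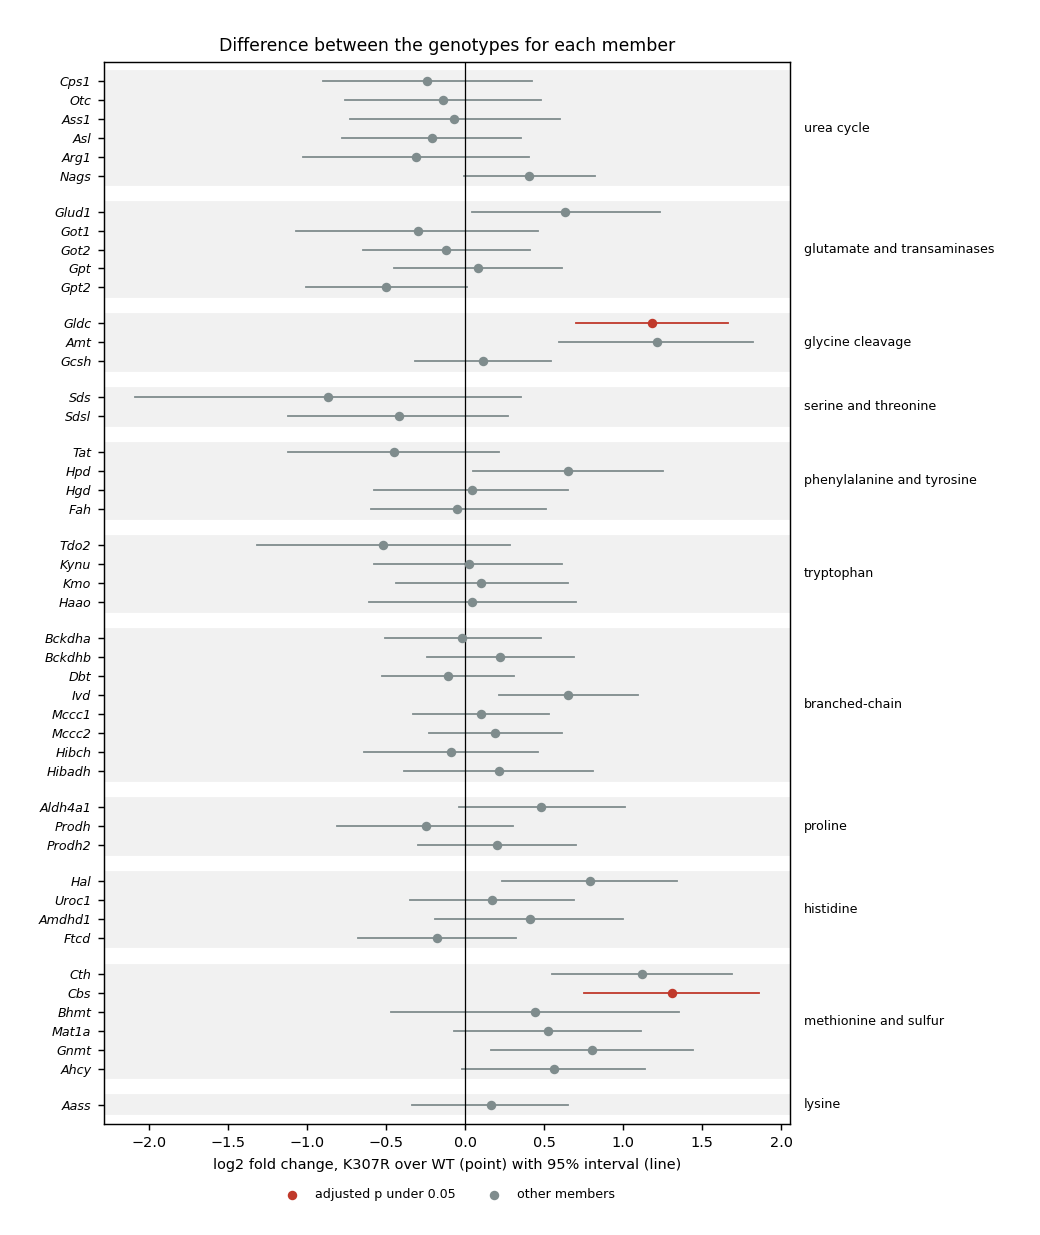
Log2 fold change of each gene, K307R over WT (point), with its 95% interval (line), grouped by pathway. The genes in red, Gldc at 1.18 and Cbs at 1.31, are those with an edgeR adjusted p under 0.05, and all 6 methionine and sulfur genes lie to the right of 0.

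The methionine and sulfur enzymes lay to one side. All 6 had a positive log2 fold change, with a median of 0.68 and a range of 0.44 to 1.31, and in 5 of them the K307R livers lay above the WT livers without overlap, as in 25.2% of all genes. Of these 6, 1 rose, against 1.39% of all genes. At an unadjusted p under 0.05, 3 were higher, against 8.50% of all genes, and 0 were lower. In liver, methionine is activated to S-adenosylmethionine, spent as a methyl donor, and returned as homocysteine, which is either methylated back to methionine or drained through cystathionine into cysteine.

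Cbs, the cystathionine beta-synthase that commits homocysteine to cysteine (Entrez gene 12411, chromosome 17 from 31612623 to 31637233, GRCm38.p6), was at 630.4 and 521 CPM in the K307R livers, against 248 and 218 CPM in the WT livers. Both K307R livers were more than 2-fold above both WT livers. The mean was 576 ± 77.5 CPM in the K307R livers and 233 ± 21.6 CPM in the WT livers (n = 2 each, ± SD), which gave a log2 fold change of 1.31 (SE 0.24, 95% interval 0.75 to 1.86, edgeR adjusted p = 0.0348). Cth, the cystathionine gamma-lyase of the next step, was at 304 and 293 CPM in the K307R livers, against 161 and 114 CPM in the WT livers. The groups did not overlap, and the log2 fold change of 1.12 (95% interval 0.55 to 1.69) had an adjusted p of 0.0582.

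The enzymes of the methyl cycle differed by less. Mat1a, the liver methionine adenosyltransferase, was at 2720 and 3108 CPM in the K307R livers and at 1905 and 2153 CPM in the WT livers (log2 fold change 0.52, edgeR adjusted p = 0.360). Gnmt, the glycine N-methyltransferase that consumes excess S-adenosylmethionine, was at 1878 and 1323 CPM in the K307R livers and at 962 and 878 CPM in the WT livers (0.80, adjusted p = 0.194). Ahcy, which hydrolyses S-adenosylhomocysteine, was at 1384 and 1199 CPM in the K307R livers and at 931 and 821 CPM in the WT livers (0.56, adjusted p = 0.309). For each of these genes the lower K307R liver was above the higher WT liver. Bhmt, the betaine-dependent homocysteine methyltransferase, was the exception. It had 1996 and 4628 CPM in the K307R livers, against 2485 and 2403 CPM in the WT livers, so that the K307R livers lay on either side of the WT livers, and its log2 fold change of 0.44 (adjusted p = 0.637) was -0.29 without K307R replicate 2.

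**Figure D3:**
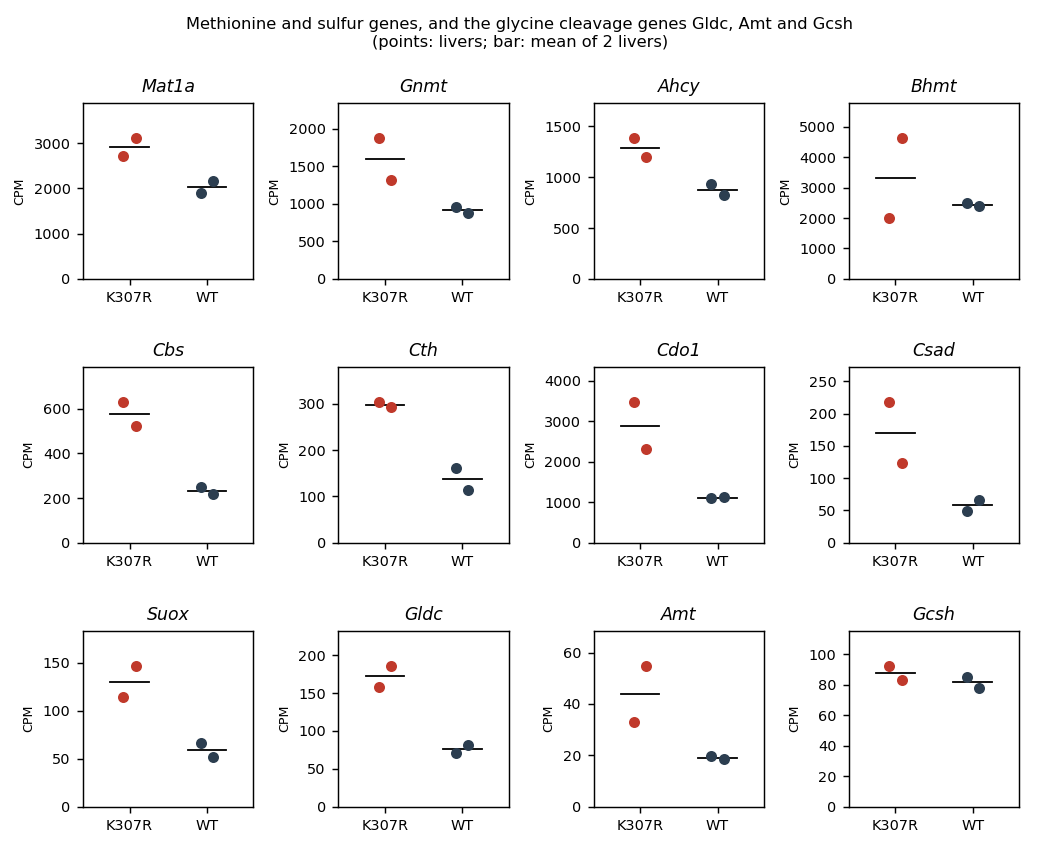
CPM (linear axis from 0) of the 6 methionine and sulfur members, the wider genes Cdo1, Csad and Suox, and the 3 glycine cleavage members in each liver. K307R is in red at the left of each panel and WT in dark blue at the right, with a bar at the mean of the 2 livers. Cbs averages 576 CPM in the K307R livers and 233 CPM in the WT livers, while the 2 Bhmt points of the K307R livers straddle those of the WT livers and the Gcsh means lie close together.

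Other genes of sulfur metabolism, listed as wider members of the pathway, were tested beside these. Of 14 tested, 2 rose and 0 fell (14.3%, against 2.86% of all genes). The median log2 fold change of the 14 was 0.15, with 9 positive and 5 negative. Csad, the cysteine sulfinate decarboxylase of taurine synthesis, rose to 218 and 123 CPM in the K307R livers, against 49.5 and 65.8 CPM in the WT livers (log2 fold change 1.56, SE 0.30, edgeR adjusted p = 0.0418). Suox, the mitochondrial sulfite oxidase, rose to 114 and 147 CPM in the K307R livers, against 66.0 and 51.9 CPM in the WT livers (1.15, SE 0.22, adjusted p = 0.0415). Cdo1, the cysteine dioxygenase whose product Csad uses, was at 3474 and 2302 CPM in the K307R livers and at 1108 and 1117 CPM in the WT livers (1.38, edgeR adjusted p = 0.0525), and was called by DESeq2. Csad was not called without K307R replicate 1 (adjusted p = 0.0764), and Suox was not called without K307R replicate 2 (0.115) or WT replicate 2 (0.0959). On log2(FPKM + 1) and log2(FPKM + 0.1) neither was called by limma, with adjusted p of 0.0833 and 0.0845 for Csad and 0.0506 and 0.0508 for Suox.

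The reads of Cbs were divided among 3 RefSeq transcripts, and these did not move alike. NM_178224 held 233 and 222 CPM in the K307R livers, against 26.1 and 62.8 CPM in the WT livers. NM_144855, the most abundant in each liver, held 327 and 252 CPM in the K307R livers, against 130.4 and 139 CPM in the WT livers. Both were above the WT range in each K307R liver. NM_001271353 held 70.7 and 47.4 CPM in the K307R livers, against 91.7 and 15.6 CPM in the WT livers, with overlap. As a share of Cbs reads, NM_178224 made up 36.9% and 42.5% in the K307R livers and 10.5% and 28.9% in the WT livers. No test was run on these shares, and the WT livers differed widely between themselves. The transcripts have nearly the same length, 2461, 2503 and 2458 bases, and reads that match several of them are divided by estimation.

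**Figure D4:**
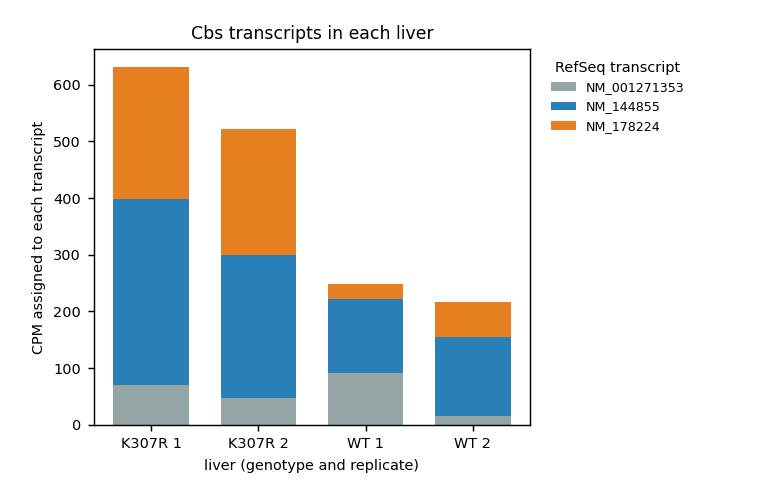
CPM assigned to each of the 3 Cbs transcripts, stacked, in each liver, with the K307R livers at the left. NM_178224 (orange) holds 233 and 222 CPM in the K307R livers, against 26.1 and 62.8 CPM in the WT livers.

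Glycine cleavage is carried out by a mitochondrial complex that splits glycine into carbon dioxide, ammonia and a folate-bound carbon unit. Of its 3 subunits among the members, 1 rose, against 1.39% of all genes. At an unadjusted p under 0.05, 2 were higher, against 8.50% of all genes, and 0 were lower. Gldc, the glycine decarboxylase (Entrez gene 104174, chromosome 19 from 30098441 to 30175441), rose to 158 and 186 CPM in the K307R livers, against 70.6 and 81.2 CPM in the WT livers. The mean was 172 ± 19.6 CPM in the K307R livers and 75.9 ± 7.45 CPM in the WT livers (n = 2 each, ± SD), which gave a log2 fold change of 1.18 (SE 0.21, 95% interval 0.70 to 1.66, edgeR adjusted p = 0.0302). Amt, the aminomethyltransferase subunit, was at 32.8 and 54.9 CPM in the K307R livers and at 19.7 and 18.4 CPM in the WT livers. The log2 fold change was 1.21 (95% interval 0.59 to 1.82), with a wider spread between the K307R livers than for Gldc and an adjusted p of 0.0596. It was 0.79 (adjusted p = 0.212) without K307R replicate 2 and 1.53 (adjusted p = 0.0135) without K307R replicate 1. Gcsh, the lipoylated carrier protein, was at 92.4 and 83.3 CPM in the K307R livers and at 85.3 and 77.6 CPM in the WT livers, with overlap (0.11, interval -0.32 to 0.54). Dld, a further subunit listed with the wider genes, overlapped between the genotypes (-0.14, interval -0.61 to 0.33). Of the 14 wider glycine, serine and hydroxyproline genes tested, 0 were called by edgeR, and their median log2 fold change was -0.06. At an unadjusted p under 0.05, 2 were higher and 2 lower (28.6%, against 16.8% of all genes). DESeq2 called Agxt higher and Aldh18a1 lower.

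The promoters of the called members, Cbs and Gldc, and of Amt, the other subunit of the Gldc complex that differed by over 2-fold, are shown because these are the members with the clearest separation for which the RefSeq promoter table (GRCm38.p6) holds a sequence. Each runs 5′ to 3′ on the gene's strand, from 250 bases before the annotated start to 50 bases after it. Cbs lies at chr17:31637156-31637455 and Gldc at chr19:30175392-30175691, both on the minus strand, and Amt at chr9:108296655-108296954 on the plus strand. Capitals mark matches, on either strand, to an E-box (CACGTG), the site of clock and MYC-family factors, or to a GC box (GGGCGG), the site of SP-family factors.
Cbs: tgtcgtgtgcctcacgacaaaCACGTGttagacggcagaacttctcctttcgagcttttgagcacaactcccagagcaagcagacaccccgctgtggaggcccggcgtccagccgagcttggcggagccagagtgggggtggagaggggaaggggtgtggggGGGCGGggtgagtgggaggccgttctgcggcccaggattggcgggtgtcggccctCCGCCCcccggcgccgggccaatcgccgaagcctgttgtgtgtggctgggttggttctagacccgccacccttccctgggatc
Gldc: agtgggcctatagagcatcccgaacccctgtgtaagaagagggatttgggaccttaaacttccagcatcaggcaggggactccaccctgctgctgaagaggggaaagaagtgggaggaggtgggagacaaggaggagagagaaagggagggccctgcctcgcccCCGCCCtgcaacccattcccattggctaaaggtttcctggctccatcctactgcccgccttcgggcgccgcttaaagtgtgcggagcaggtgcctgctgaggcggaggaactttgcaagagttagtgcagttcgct
Amt: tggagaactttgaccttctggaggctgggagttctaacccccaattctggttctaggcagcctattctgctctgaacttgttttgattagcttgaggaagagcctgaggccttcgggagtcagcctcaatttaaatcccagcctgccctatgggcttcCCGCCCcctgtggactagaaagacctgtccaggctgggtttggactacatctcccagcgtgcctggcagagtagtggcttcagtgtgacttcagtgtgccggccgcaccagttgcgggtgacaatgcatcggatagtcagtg

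A GC box was found in all 3 sequences, with its first base at -88 and -33 from the start of Cbs, -86 of Gldc and -92 of Amt. An E-box was found in that of Cbs alone, at -229. Promoters were listed for 36 of the 46 members, 37 sequences in all, of which 17 (45.9%) held a GC box and 3 (8.11%) an E-box, those of Ass1, Cbs and Mccc2. Among all 32851 promoters in the table the shares were 35.7% and 7.15%. A D-box (TTANGTAA) was in 0 member promoters and 2.32% of all, a cAMP response element (TGACGTCA) in 0 and 1.79%, an amino acid response element (TGATGNAA) in 1, that of Got1, and 3.97%, and a spaced glucocorticoid receptor half-site pair (ACANNNTGT) in 6 (16.2%) and 6.85%. These were in Bckdhb, Bhmt, Gnmt, Hal, Ivd and Tdo2. None of the printed matches overlapped another. The matches are descriptions of letters within these windows.

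No difference in the urea cycle enzymes passed the test. Of 6, 0 rose and 0 fell by edgeR, 0 passed an unadjusted p under 0.05, and 0 were called by DESeq2. Their median log2 fold change was -0.18, with a range of -0.31 to 0.40. Cps1, the carbamoyl phosphate synthetase that feeds ammonia into the cycle, was at 3212 and 2406 CPM in the K307R livers and at 3748 and 2899 CPM in the WT livers, and the 95% interval of its log2 fold change, -0.90 to 0.42, excludes a change of 2-fold. Otc, the ornithine transcarbamylase and the only member on the X chromosome, was at 500.4 and 386 CPM in the K307R livers and at 567 and 409 CPM in the WT livers (interval -0.76 to 0.48). In both genes the groups overlapped, although the sex-chromosome pattern differed between them.

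Ass1, the argininosuccinate synthetase and the highest of the 46 by FPKM, was at 4439 and 3087 CPM in the K307R livers and at 3701 and 4182 CPM in the WT livers (interval -0.73 to 0.60). Asl, the lyase that releases arginine, was at 384 and 296 CPM in the K307R livers and at 367 and 422 CPM in the WT livers (interval -0.78 to 0.35). Arg1, the arginase that yields urea, was at 1294 and 753 CPM in the K307R livers and at 1291 and 1253 CPM in the WT livers (interval -1.03 to 0.40). In each of these genes K307R replicate 2 was the lowest liver and K307R replicate 1 lay within or above the WT values. Nags, which makes the N-acetylglutamate that Cps1 needs, was the single gene of the cycle whose groups did not overlap, with 56.6 and 60.9 CPM in the K307R livers and 45.0 and 43.8 CPM in the WT livers (log2 fold change 0.40, edgeR adjusted p = 0.308). Summed over the 6 genes, the level was 9885 and 6988 CPM in the K307R livers and 9719 and 9208 CPM in the WT livers, so that the K307R livers differed between themselves by more than their mean differed from that of the WT livers.

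Among the genes around the cycle, listed as its wider members, 1 of 11 rose and 1 fell (18.2%, against 2.86% of all genes). Oat, the ornithine aminotransferase that draws ornithine out of the cycle, rose to 352 and 695 CPM in the K307R livers, against 158 and 84.4 CPM in the WT livers (log2 fold change 2.11, SE 0.41, edgeR adjusted p = 0.0426). It was not called without K307R replicate 2 (1.54, adjusted p = 0.0877), nor by limma on log2(FPKM + 1) or log2(FPKM + 0.1) (adjusted p = 0.0566 and 0.0568). Asns, the asparagine synthetase, fell to 0.265 and 0.102 CPM in the K307R livers, 5 and 2 reads, against 2.08 and 8.76 CPM, 36 and 185 reads, in the WT livers (-4.85, SE 0.85, adjusted p = 0.0303). Its size depended on which WT liver was kept, at -3.47 without WT replicate 2 and -5.54 without WT replicate 1. It was at -5.65 without K307R replicate 1 and -4.33 without K307R replicate 2, and in those fits it was not called (adjusted p = 0.0509 and 0.0903). Nor was it called by limma-voom (adjusted p = 0.0952), on log2(FPKM + 1) (-1.62, adjusted p = 0.173) or on log2(FPKM + 0.1) (-3.54, adjusted p = 0.0960).

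The glutamate dehydrogenase and the transaminases, 5 members, showed 0 rises and 0 falls by edgeR and by DESeq2, with a median log2 fold change of -0.12. At an unadjusted p under 0.05, 1 was higher, against 8.50% of all genes. This was Glud1, the mitochondrial dehydrogenase that releases ammonia from glutamate, at 1286 and 1150 CPM in the K307R livers and at 876 and 695 CPM in the WT livers (0.63, edgeR adjusted p = 0.265). The cytosolic and mitochondrial aspartate transaminases were both without a call. Got1, the cytosolic form, was at 284 and 166 CPM in the K307R livers and at 216 and 340.1 CPM in the WT livers, a wide spread in each genotype. Got2, the mitochondrial form, was at 569 and 589 CPM in the K307R livers and at 657 and 603 CPM in the WT livers, and was the more abundant of the pair per length (mean FPKM 256 for Got2 and 122 for Got1). The alanine transaminases lay on opposite sides of 0 without passing the test. Gpt was at 260.0 and 215 CPM in the K307R livers and at 204 and 244 CPM in the WT livers (0.08, adjusted p = 0.897). Gpt2, the mitochondrial form, was at 291 and 258 CPM in the K307R livers and at 395 and 381 CPM in the WT livers, without overlap (-0.50, adjusted p = 0.306).

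Serine dehydratase, a classic fasting-responsive enzyme that turns serine into pyruvate, was the most variable member. Sds was at 208 and 65.6 CPM in the K307R livers and at 165 and 335 CPM in the WT livers, a 3.18-fold difference between the K307R livers and a 2.03-fold difference between the WT livers. Its log2 fold change of -0.87 had a 95% interval of -2.09 to 0.35 (edgeR adjusted p = 0.468), and was -0.26 without K307R replicate 2 and -1.93 without K307R replicate 1. Sdsl, the serine dehydratase-like gene that lies 3.72 kb from Sds on chromosome 5, was at 7.59 and 5.01 CPM in the K307R livers and at 7.06 and 9.80 CPM in the WT livers (-0.42, adjusted p = 0.538). For both neighbours the lowest liver was K307R replicate 2 and the highest was WT replicate 2. The annotated span of Sds overlaps that of Plbd2, also in the tables, and the strand setting of the counting was not stated.

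In the pathway of phenylalanine and tyrosine, 4 members, 0 rose and 0 fell by edgeR and by DESeq2. At an unadjusted p under 0.05 there was 1 higher, against 8.50% of all genes. Tat, the tyrosine aminotransferase that starts the pathway and is a classic glucocorticoid target, was at 2405 and 1625 CPM in the K307R livers and at 2842 and 2681 CPM in the WT livers (-0.45, edgeR adjusted p = 0.486). Hpd, the dioxygenase of the next step, lay the other way, at 2375 and 1904 CPM in the K307R livers and at 1429 and 1293 CPM in the WT livers (0.65, adjusted p = 0.257). Neither gene's groups overlapped. The later enzymes overlapped between the genotypes. Hgd, the homogentisate dioxygenase, was at 559 and 462 CPM in the K307R livers and at 585 and 411 CPM in the WT livers, and Fah, the fumarylacetoacetase that ends the pathway, was at 779.9 and 656 CPM in the K307R livers and at 731 and 754 CPM in the WT livers. Of the 6 wider genes of the pathway, 0 were called by edgeR or DESeq2, and 0 passed an unadjusted p under 0.05.

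The tryptophan pathway overlapped between the genotypes at each of its 4 members, with 0 calls by edgeR and DESeq2, 0 at an unadjusted p under 0.05 and a median log2 fold change of 0.03. Tdo2, the dioxygenase that opens the pathway in liver, was at 673 and 504 CPM in the K307R livers and at 1109 and 579 CPM in the WT livers (-0.52, interval -1.32 to 0.28). The WT livers differed by 1.91-fold. Kmo, the kynurenine hydroxylase, was at 217 and 247 CPM in the K307R livers and at 246 and 186 CPM in the WT livers. Kynu, the kynureninase, was at 133 and 130.4 CPM in the K307R livers and at 160.3 and 100 CPM in the WT livers. Its main transcript, NM_027552, held 89.8% and 84.9% of its reads in the K307R livers and 79.5% and 81.6% in the WT livers. Haao, which leads on towards quinolinate and NAD, was at 661 and 436 CPM in the K307R livers and at 593 and 471 CPM in the WT livers. Of 7 wider genes of the pathway 0 were called by edgeR or DESeq2, with 1 higher and 3 lower at an unadjusted p under 0.05 (57.1%, against 16.8% of all genes).

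Of the 8 enzymes of leucine, isoleucine and valine breakdown, 0 rose and 0 fell by edgeR and DESeq2, and the 95% intervals of 7 stayed within 2-fold. The exception was Ivd, the isovaleryl-CoA dehydrogenase of leucine breakdown. It was at 149.7 and 153 CPM in the K307R livers and at 93.4 and 99.4 CPM in the WT livers, with replicates that agree within 1.06-fold (log2 fold change 0.65, SE 0.19, interval 0.21 to 1.09, edgeR adjusted p = 0.131). The subunits of the branched-chain ketoacid dehydrogenase, the committed step of the 3 pathways, lay close to the WT values. Bckdha was at 222 and 206 CPM in the K307R livers and at 230.1 and 202 CPM in the WT livers, and Bckdhb was at 101 and 78.0 CPM in the K307R livers and at 75.5 and 77.6 CPM in the WT livers. Dbt, the transacylase core, was at 77.1 and 74.0 CPM in the K307R livers and at 77.5 and 86.0 CPM in the WT livers. Of the 2 Bckdhb transcripts, NM_199195 held 78.3% and 71.0% of the reads in the K307R livers and 65.5% and 69.2% in the WT livers.

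The carboxylase of leucine breakdown has 2 subunits. Mccc1 was at 47.0 and 48.6 CPM in the K307R livers and at 47.7 and 41.6 CPM in the WT livers, and Mccc2 at 79.4 and 75.6 CPM in the K307R livers and at 71.3 and 64.4 CPM in the WT livers. Mccc1 overlaps the transcript Mccc1os, also in the tables, so that their reads may not be separable. The valine enzymes overlapped between the genotypes. Hibch, the hydroxyisobutyryl-CoA hydrolase, was at 69.3 and 59.7 CPM in the K307R livers and at 82.6 and 54.8 CPM in the WT livers. Hibadh, the dehydrogenase after it, was at 435 and 296 CPM in the K307R livers and at 332 and 299 CPM in the WT livers. Of the 15 wider genes of these pathways 0 were called by edgeR or DESeq2. At an unadjusted p under 0.05, 2 of them were higher and 0 lower (13.3%, against 16.8% of all genes).

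Histidine breakdown had 4 members, with 0 calls by edgeR. In all 4 the genotypes did not overlap, 3 higher and 1 lower in the K307R livers, where 25.2% and 23.4% of all genes did not overlap in those directions. Hal, the histidine ammonia-lyase of the first step, was at 409 and 305 CPM in the K307R livers and at 213 and 201 CPM in the WT livers (log2 fold change 0.79, interval 0.23 to 1.34, edgeR adjusted p = 0.145, DESeq2 adjusted p = 0.0297). Its neighbour Amdhd1, the imidazolonepropionase, lies 6.58 kb away on chromosome 10 and was at 277 and 179.7 CPM in the K307R livers and at 175 and 171 CPM in the WT livers. In both neighbours K307R replicate 1 was the highest liver. Uroc1, the urocanate hydratase between them in the pathway, was at 500.2 and 507 CPM in the K307R livers and at 425 and 470.0 CPM in the WT livers (0.17, adjusted p = 0.767). Ftcd, the formiminotransferase that hands the last carbon to folate, was at 267 and 233 CPM in the K307R livers and at 290.4 and 278 CPM in the WT livers (-0.18, adjusted p = 0.742).

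The proline and lysine enzymes, 3 and 1 members, had 0 calls by edgeR and DESeq2 and 0 at an unadjusted p under 0.05. Prodh, the proline dehydrogenase, was at 179 and 124 CPM in the K307R livers and at 180.2 and 181 CPM in the WT livers. Prodh2, its relative that acts on hydroxyproline, was at 196 and 181 CPM in the K307R livers and at 147 and 181 CPM in the WT livers. Aldh4a1, the dehydrogenase shared by both routes, was at 557 and 489.9 CPM in the K307R livers and at 381 and 368 CPM in the WT livers (0.48, edgeR adjusted p = 0.335). Of these 3, Aldh4a1 showed the clearest separation, with each K307R liver well above each WT liver. Aass, the aminoadipate semialdehyde synthase that starts lysine breakdown, was at 251 and 214 CPM in the K307R livers and at 207 and 211 CPM in the WT livers (0.16, adjusted p = 0.777).

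Set against the rest of the members, the methionine, sulfur and glycine cleavage genes held both calls. The other 37 members had 0 calls by edgeR, against 2.86% of all genes, and a median log2 fold change of 0.02. Their 0 calls follow from the split, which sets aside the groups that held both calls. At an unadjusted p under 0.05, 4 of these 37 were higher and 0 lower (10.8%, against 16.8% of all genes). DESeq2 called 1 of the 37, Hal. This contrast between pathways was seen in the data and was not tested. Over all the wider enzymes and amino acid transporters, 84 genes tested, 3 rose and 1 fell (4.76%, against 2.86% of all genes), and 0 of the 12 transporters were called by edgeR, with 5 higher and 1 lower at an unadjusted p under 0.05 and 1 higher and 1 lower by DESeq2.

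The regulators known to act on these genes were measured in the same fit. Of 19, 0 were called by edgeR, with 2 higher and 3 lower at an unadjusted p under 0.05 (26.3%, against 16.8% of all genes). DESeq2 called 0 higher and 2 lower, Cebpb and Foxa3. Cebpb, a bZIP factor that acts on amino acid catabolic genes, had the largest difference of the 8 named by rule, at 32.6 and 55.6 CPM in the K307R livers and at 105 and 108 CPM in the WT livers (log2 fold change -1.27, SE 0.27, edgeR adjusted p = 0.0515). Both K307R livers were below both WT livers. Foxo1, a fasting-activated factor, was at 33.2 and 39.5 CPM in the K307R livers and at 48.3 and 58.2 CPM in the WT livers (-0.55, adjusted p = 0.217). Klf15 and the coactivator gene Ppargc1a were also lower in both K307R livers than in both WT livers, with log2 fold changes of -0.24 (adjusted p = 0.651) and -0.64 (adjusted p = 0.386). Ppargc1a was at 7.53 and 7.31 CPM in the K307R livers and at 7.75 and 15.2 CPM in the WT livers, and its difference rested on WT replicate 2, at -0.07 (adjusted p = 0.953) without that liver and -1.04 (adjusted p = 0.0452) without WT replicate 1. The genotypes overlapped for Nr3c1, the glucocorticoid receptor (0.07), Gcgr, the glucagon receptor (0.01), Hnf4a (0.29) and Cebpa (0.07). Those of Nr3c1, Cebpa and Gcgr changed sign when single livers were left out.

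Bulk liver RNA does not tell fewer cells of a type from less RNA per cell. The 8 hepatocyte markers, Alb among them, summed to 140900 and 142876 CPM in the K307R livers and to 150558 and 150641 CPM in the WT livers, with 0 calls by edgeR and 0 at an unadjusted p under 0.05. Among the 9 pericentral genes outside the members 3 rose, Oat, Axin2 and Tbx3, and 0 fell (33.3%, against 2.86% of all genes). By unadjusted p under 0.05, 6 of the 9 were higher and 0 lower (66.7%, against 16.8% of all genes). Oat is also counted above among the wider urea cycle genes. The pericentral list summed to 8525 and 10014 CPM in the K307R livers and 6393 and 3799 CPM in the WT livers, most of it Cyp2e1 in each liver. Glul was at 769.8 and 1324 CPM in the K307R livers and at 952 and 447 CPM in the WT livers. Cyp2e1 was at 6454 and 7066 CPM in the K307R livers and at 4194 and 2647 CPM in the WT livers. Both were without a call by edgeR, although DESeq2 called Cyp2e1 higher. It also called Lgr5 of this list higher (DESeq2 adjusted p = 0.0112), which edgeR did not. Of the 8 periportal genes outside the members 2 rose, Pigr and Ctsc, and 1 fell, Cdh1 (37.5%, against 2.86% of all genes). The periportal list summed to 5773 and 6334 CPM in the K307R livers and 6019 and 5489 CPM in the WT livers. Cyp2f2 was at 1023 and 1259 CPM in the K307R livers and at 1861 and 1228 CPM in the WT livers, and Gls2, the liver glutaminase, at 461 and 296 CPM in the K307R livers and at 367 and 352 CPM in the WT livers.

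Of the 6 stellate cell markers 2 rose, Dcn and Colec11, and 1 fell, Col1a1, where 2.86% of all genes were called in either direction. In this list 4 were higher and 1 lower at an unadjusted p under 0.05, against 8.50% and 8.31% of all genes. DESeq2 also called Lrat higher (DESeq2 adjusted p = 0.0141). The list summed to 285 and 221 CPM in the K307R livers and 103 and 169 CPM in the WT livers. Dcn alone was at 183 and 135 CPM in the K307R livers and at 52.4 and 71.6 CPM in the WT livers. The Kupffer cell, sinusoidal endothelial, cholangiocyte and lymphocyte lists had 0 calls by edgeR, and DESeq2 called 1 gene of them higher, the Kupffer cell gene Vsig4. At an unadjusted p under 0.05 they had 3 higher and 0 lower, 2 and 1, 1 and 0, and 0 and 0. These lists had 6, 6, 5 and 5 genes tested, and 8.50% of all genes were higher and 8.31% lower. The Kupffer cell list summed to 256 and 164 CPM in the K307R livers and 124 and 152 CPM in the WT livers, the endothelial list to 84.3 and 95.1 CPM against 56.4 and 77.9 CPM, the cholangiocyte list to 32.0 and 60.1 CPM against 70.4 and 54.5 CPM, and the lymphocyte list to 5.09 and 3.17 CPM against 3.53 and 5.11 CPM. The cholangiocyte marker Cftr had 0 reads in 1 K307R liver, and the other markers of these lists found in the tables had reads in all 4. The part of these markers in the differences of Cbs, Gldc, Oat, Csad and Suox was not tested.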

How the data were processed

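RNA was measured in 2 K307R and 2 WT livers. The authors' tables, 1 per liver, list RefSeq transcripts with expected counts (RSEM's estimated reads, not normalized) and FPKM (the authors' values per kilobase of transcript and depth), per the file headers. Per the submitters' processing notes, the tools were HISAT, Bowtie2 and RSEM and the build mm10; roles and versions are not stated. The deposited transcript length, in bases, was used as a description. The strand setting is likewise not stated.

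Expected counts were summed per Entrez gene (17543 genes, 17502 named from RefSeq's GRCm38.p6 table, the mm10 assembly) and rounded. Genotypes were compared by quasi-likelihood F test (edgeR 4.0.16, R 4.3.3) after filterByExpr, with TMM factors (1.014 and 1.043 in K307R, 0.896 and 1.055 in WT), genotype as the only term and 2 residual degrees of freedom. P-values were adjusted by Benjamini-Hochberg across all 12837 genes, and a gene was called at 0.05. Standard errors were computed from the log2 fold change and its F value. The fit was tested on simulated data. It called 28 of 100 genes given a log2 fold change of 1 in either direction, and 100 of 100 given 2. Of 12465 genes given no difference it called 17. Set beside the 28 and 100 calls above, these 17 were a larger share of the calls than the threshold of 0.05 aims at. Calls near the threshold may thus be less secure than it states. Since only 28 of 100 genes with a log2 fold change of 1 were called, the absence of a call does not show the absence of a 2-fold difference. The alternatives comprised scaling by RLE, upper quartile or total count, DESeq2 1.42.0, limma 3.58.1 (voom, and trend on log2(FPKM + 1) and log2(FPKM + 0.1) of genes averaging at least 1 FPKM in either genotype), other filters, a replicate block, and each liver left out.

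The members, pathway groups, wider lists, regulators and markers were chosen with earlier results of these data known. All members are named. Of the wider lists and regulators, called genes and 8 regulators given by name are. Cdo1, Dld, the called cell type and zone markers and the motifs were chosen after values were seen. Mitochondrially encoded transcripts, and the listed genes Dao, Tdh and Trbc2, were not analysed here.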

Additional observations from a re-analysis of the deposited data

How the results depend on the processing

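With 2 livers a genotype, precision rests on the spread between livers and, for genes of few reads such as Sdsl, also on counting. In every alternative 0 members were called lower. The number called higher was 2 with RLE scaling, limma-voom, both FPKM settings (Cbs and Cth), the 1 CPM filter and the replicate block, 3 with total-count scaling, 4 with upper-quartile scaling or no filter, and 6 with DESeq2. It ranged from 0 to 3 with single livers left out. Cbs was called in each setting that kept all 4 livers, and Gldc in each of these except those on FPKM.

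Over all genes, 178 were higher and 189 lower. The counts were 368 and 370 with DESeq2, 410 and 419 with no filter, 94 and 69 on log2(FPKM + 1), 91 and 70 on log2(FPKM + 0.1), and with total-count scaling 124 were lower, so that 60.3% of calls were higher against 48.5%. With single livers left out they ranged from 117 to 327 higher and from 94 to 393 lower. Of the wider genes, called 3 higher and 1 lower, DESeq2 called 6 and 3, no filter 8 and 3, limma-voom 0 lower, and each FPKM setting 0 and 0. With single livers left out the range was 1 to 9 higher and 0 to 2 lower.

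Over the tested genes, the deviations of same-numbered livers from their genotype means were not correlated between the genotypes (-0.0027). A single correlation over genes, from 2 livers a genotype, cannot show whether same-numbered livers were paired. With the replicate block 347 genes were called in place of 367, 2 members higher, and of the wider genes 0 higher and 1 lower, with adjusted p of 0.0743 for Oat, 0.0649 for Csad and 0.0565 for Suox. The cause of these changes was not tested.

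Some members near 0 changed sign. Bckdha was at 0.03 with upper-quartile scaling and 0.07 with total-count scaling and on both FPKM scales. Fah was at 0.02 with total-count scaling and 0.03 on both FPKM scales, and Hibch at 0.01 and 0.02. Gcgr was at -0.0032 with RLE scaling and -0.0044 with DESeq2. With single livers left out, log2 fold changes ranged from -0.76 to 0.03 for Arg1, -0.35 to 0.17 for Ass1, -0.36 to 0.11 for Otc, -0.74 to 0.06 for Got1, -0.06 to 0.22 for Gpt, -0.92 to 0.02 for Tdo2, -0.29 to 0.40 for Kynu, -0.09 to 0.32 for Kmo, -0.29 to 0.31 for Haao, -0.20 to 0.31 for Hgd, -0.18 to 0.07 for Fah, -0.11 to 0.08 for Bckdha, -0.36 to 0.23 for Hibch, -0.09 to 0.46 for Hibadh, -0.00084 to 0.20 for Mccc1, -0.29 to 0.92 for Bhmt, -0.13 to 0.29 for Nr3c1, -0.13 to 0.29 for Cebpa and -0.12 to 0.14 for Gcgr.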
